A study of Mus musculus with 12 samples.

Results

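The genes described here are interferon beta (Ifnb1), both chains of its receptor (Ifnar1 and Ifnar2), the Janus kinases Jak2 and Tyk2, and the transcription factors Stat2, Stat3, Stat5a and Stat6, in mouse dendritic cells stimulated with lipopolysaccharide (LPS). Taken were the non-control probes whose RefSeq accession belonged to it, and the probe with the highest mean intensity stood for the gene. All 9 genes had a probe, and all 9 were among the 11095 genes that passed the filter on dim probes. The rule that chose the genes used no measured value, but they were chosen with earlier results of these data known.

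LPS comes from the outer membrane of Gram-negative bacteria and binds a receptor complex that holds Tlr4. The question of the study was which genes respond to it in bone marrow-derived dendritic cells, a cultured form of the cells that present antigen to T cells. In every group, marrow of mouse femur and tibia had been freed of B cells and T cells with antibodies and magnetic beads, and had then spent 5 days in medium with 2 cytokines, 10 ng/ml GM-CSF and 5 ng/ml IL-4. The groups were unstimulated cells (0 h) and cells with LPS at 100 ng/ml for 1 h, 6 h and 24 h, with 3 samples each, given in the labels as biological replicates and tagged as donors A, B and C. The sources used here do not state the animals' strain, sex or age. Cells were collected by pipetting, and no sort is named. No cells were kept without LPS beyond 0 h, so time in culture after 0 h cannot be told apart from LPS. On each of the 12 arrays, Cy5-labelled RNA of 1 sample was hybridised with the same Cy3-labelled pool of mouse RNA. A level below is therefore the log2 ratio of the sample to that pool, and only levels of 1 probe are compared with each other.

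Interferon beta is a secreted antiviral cytokine that macrophages and dendritic cells make when Tlr4 signals through the adaptor Ticam1 and the kinase Tbk1. It binds Ifnar1 and Ifnar2, which carry the kinases Tyk2 and Jak1. These phosphorylate STATs, among them Stat2, which works with Irf9 in the complex ISGF3 and switches on interferon-stimulated genes, among them genes of the pathway itself. Jak2, Stat3, Stat5a and Stat6 serve mainly other cytokines that share this kind of signalling: Jak2 and Stat5a serve GM-CSF, Stat3 serves IL-6 and IL-10, and Stat6 serves IL-4.

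The promoters of Ifnb1 and Stat2 are shown because these genes had the highest changes among the 9, and because each holds a motif described below. The sequences are RefSeq's, of GRCm38.p6, from 250 bases before to 50 bases after the gene start, read 5′ to 3′ on the strand of the gene. Ifnb1 (chr4:88522745-88523044, minus strand) has a match to the kappa B motif, which NF-kappa B binds, at -116 to -107 from the start, in capitals. Stat2 (chr10:128270248-128270547, plus strand) has the core GAAANNGAA of the interferon-stimulated response element, on the opposite strand, at -221 to -213, in capitals.
Ifnb1: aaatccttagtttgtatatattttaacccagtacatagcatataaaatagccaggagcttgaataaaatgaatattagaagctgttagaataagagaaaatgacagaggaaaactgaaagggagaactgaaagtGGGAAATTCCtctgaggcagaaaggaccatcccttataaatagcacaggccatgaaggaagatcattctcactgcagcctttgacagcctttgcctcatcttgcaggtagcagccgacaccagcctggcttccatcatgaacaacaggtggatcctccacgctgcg
Stat2: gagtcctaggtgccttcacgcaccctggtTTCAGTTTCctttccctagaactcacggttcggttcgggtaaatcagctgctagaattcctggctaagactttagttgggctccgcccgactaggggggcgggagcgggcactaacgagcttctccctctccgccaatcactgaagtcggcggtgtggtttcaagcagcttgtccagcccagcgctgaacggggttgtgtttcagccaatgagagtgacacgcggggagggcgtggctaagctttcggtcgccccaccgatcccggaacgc
Each motif was searched on both strands in the promoters of all 9 genes, and no match overlapped another. GAAANNGAA was found in Stat2 only among the 9, and in 8.56% of 32851 promoters of this length. TTCNNNGAA, the core of the gamma-activated site that STAT dimers bind, was found in Ifnar2 (ttcctggaa, -214 to -206) and across the start of Ifnar1 (ttcacggaa, -5 to 4), and in 8.3% of all promoters. The kappa B motif was found in Ifnb1 (gggaaattcc) and at a second start of Stat5a (ggggcacccc, -234 to -225), and in 4.51% of all promoters. A match describes the letters of a window and no binding was measured.

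In the Cy5 channel, 48.1% to 57.6% of probes were well above background, with a median signal of 23 to 43, and no spot was saturated. Donor B at 1 h and at 24 h, whose arrays shared a slide, stood apart in the Cy3 channel of the pool, with median signals of 45 and 41 against 19.5 to 27.5 on the others, and 68.7% and 68.6% of probes above background against 58.6% to 63.6%. Both arrays also held the highest ratios of Ifnar2, Jak2, Stat2 and Stat5a in their groups, and the lowest of Tyk2. That of 1 h also held the highest of Ifnb1, Ifnar1 and Stat6, and that of 24 h the highest of Stat3. Leaving out either array changed no call of the 9 genes, and gave at 1 h 5.27 for Ifnb1 (adjusted p = 9.8e-05), and at 24 h 1.36 for Ifnar2 (adjusted p = 0.00124) and 0.91 for Stat5a (adjusted p = 0.0101), all against unstimulated cells. The 12 arrays lay on 4 slides: all 3 unstimulated arrays were on 1 slide with 1 array of 1 h, and no slide held unstimulated cells with cells of 6 h or 24 h. The dendritic cell label was checked against 10 marker genes, of which 9 were above background on all arrays of the unstimulated, 1 h and 6 h groups and 10 at 24 h. Siglech, which marks plasmacytoid dendritic cells, was below background on every array of every group, as were the B cell genes Ms4a1 and Pax5, the T cell gene Cd3d and the NK cell genes Ncr1, Gzma and Prf1. All 6 macrophage and monocyte markers with a probe were above background on every array of the unstimulated, 1 h and 6 h groups, with a summed Cy5 signal of 218700 to 279400 at 1 h, 235400 to 288900 at 6 h and 113000 to 140400 at 24 h, against 157500 to 234100 in unstimulated cells. Of these, 2 were higher at 1 h, 2 higher at 6 h, and 2 higher and 3 lower at 24 h, when Cd14, the LPS co-receptor, was 4.54 higher and Mrc1, the mannose receptor, and Lyz2, a lysozyme, fell by 2.92 and 1.21. Of 4 tested mast cell and basophil markers, 3 were lower at 6 h and at 24 h, among them Cpa3, which passed the filter only through the unstimulated group. Neutrophil markers also moved with the groups. All 7 that were tested were lower at 24 h, 6 were lower at 6 h and 3 at 1 h, each against unstimulated cells. Ngp, counted at 6 h and 24 h, passed the filter only through the unstimulated group. The calls of Ngp and Cpa3, each high in that group, are no separate support for a fall. Of all genes, 3.39% were called lower at 1 h, 23.6% at 6 h and 21.4% at 24 h, and 4.05%, 16.1% and 17.9% higher. The summed Cy5 signal of the 9 neutrophil markers with a probe was 8946 to 22670 at 1 h, 4956 to 14640 at 6 h and 1460 to 14100 at 24 h, against 48870 to 73440 in unstimulated cells. Among them Elane was below background throughout. The part of these marker changes in the results that follow was not tested. In these bulk samples, fewer cells of a type and less RNA per cell cannot be told apart.

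Ifnb1 alone was called higher at 1 h, and at 6 h nearly the whole group was called higher than in unstimulated cells. At 1 h, Ifnar1, Ifnar2, Jak2, Stat5a and Stat6 were also higher in 3 of 3 donor letters, without a call. A gene was called where the adjusted p over all genes tested, from limma with Benjamini-Hochberg adjustment, was under 0.05. At 1 h, 1 of the 9 was higher and 0 lower, against 4.05% of all genes called higher and 3.39% called lower. At 6 h, 8 of the 9 were higher and 0 lower, against 16.1% and 23.6% of all genes. At 24 h, 7 of the 9 were higher and 0 lower, against 17.9% and 21.4% of all genes. The groups did not overlap for 6 of the 9 at 1 h, 8 at 6 h and 8 at 24 h, against 30.7%, 53.9% and 52.3% of all genes. These comparisons share the 3 unstimulated arrays. Ifnb1, counted at each time, passed the filter only through the LPS groups, where it was high. Its calls against unstimulated cells are therefore no separate support for a rise. The median log2 change of the 9 was 0.34 at 1 h, 1.20 at 6 h and 1.12 at 24 h, beside a median over all genes of 0.02, -0.04 and 0.02. With slide as a fixed block, 1 of the 9 was called at 1 h, 6 at 6 h and 5 at 24 h. Blocking on the donor letter gave 2, 9 and 7.

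**Figure D1:**
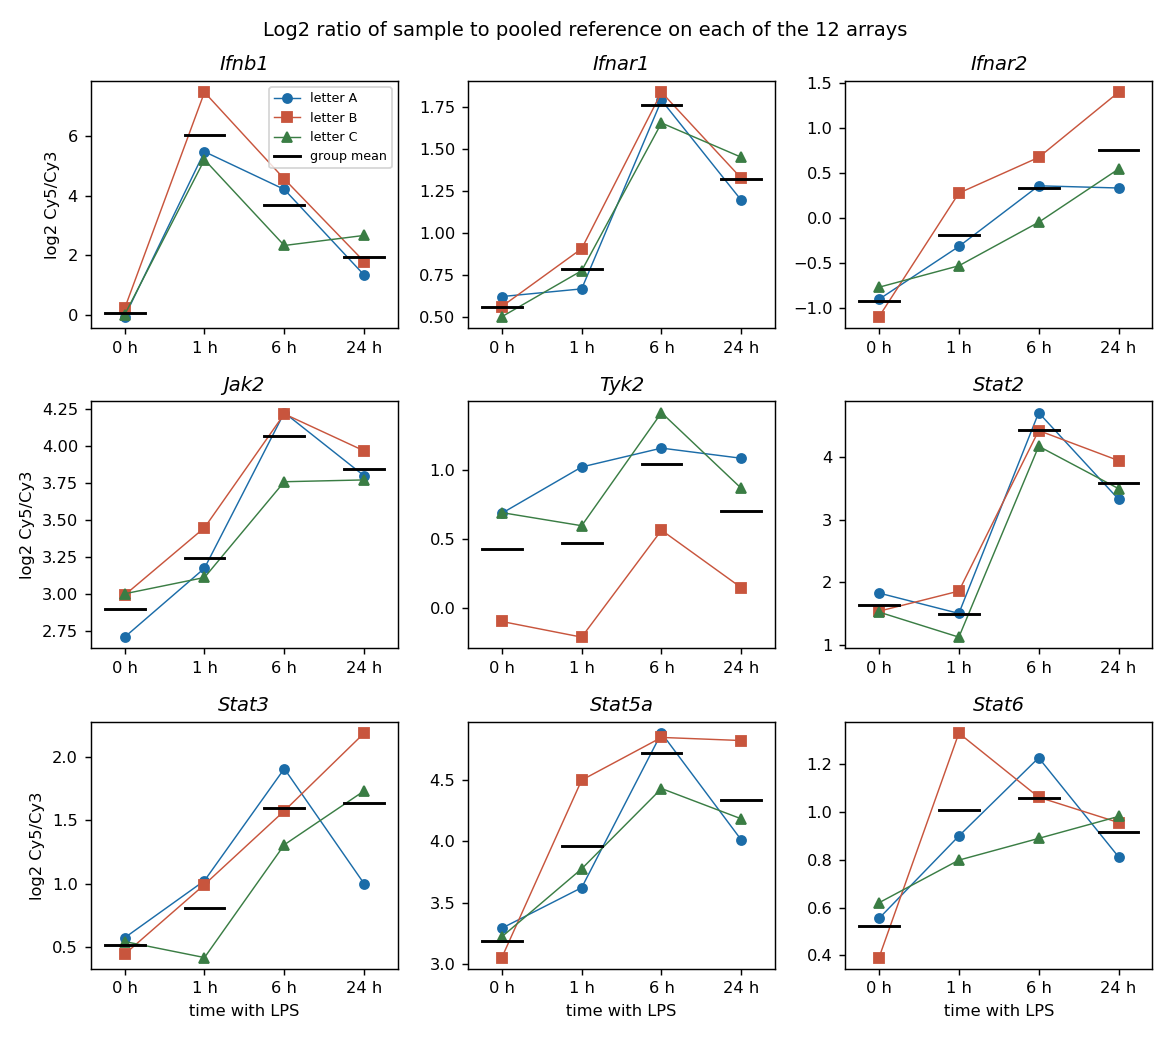
The log2 Cy5/Cy3 ratio (vertical axes, each panel on its own scale) of the 9 genes on each of the 12 arrays, by time with LPS (horizontal axes, 0 h being unstimulated cells). Points are arrays, lines join arrays of the same donor letter, and black bars are group means of 3 arrays; Ifnb1 peaked at 1 h with a mean of 6.04 and Stat2 at 6 h with a mean of 4.44.

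Ifnb1 was below background in unstimulated cells and highest at 1 h. Its log2 ratio was -0.05, 0.22 and 0.01 in unstimulated cells, 5.47, 7.46 and 5.20 at 1 h, 4.20, 4.55 and 2.33 at 6 h, and 1.34, 1.79 and 2.67 at 24 h (donors A, B and C each time). The Cy5 signal above local background, in scanner units, was -4, 9 and 4.5 in unstimulated cells, 3185.5, 9419.5 and 3110 at 1 h, 1188.5, 1481.5 and 395 at 6 h, and 101, 149 and 402.5 at 24 h. No unstimulated array was well above background and every LPS array was, so the change has a lower bound only. For the same reason Ifnb1 passed the filter only through the LPS groups. In the channel of the pool, Ifnb1 was well above background on 1 of the 12 arrays.

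The bound sets the mean of the LPS arrays against a floor on each unstimulated array. That floor was the dimmest signal among probes well above background, or the signal of Ifnb1 itself where that was higher. By this bound, Ifnb1 was at least 61-fold higher at 1 h, at least 12.5-fold higher at 6 h and at least 3.46-fold higher at 24 h than in unstimulated cells, with the background correction and scaling used. The bound was not computed under other settings. Over these, leaving out single arrays among them, measured log2 changes ran between 5.27 and 9.65 at 1 h and 1.51 and 5.75 at 24 h. At 6 h they ran between 2.38 (local backgrounds as deposited) and 8.17. The highest each time came with the scanner software's own signals. The lowest each time was under the bound, which on the log2 scale was 5.93 at 1 h, 3.65 at 6 h and 1.79 at 24 h. The adjusted p of the 3 comparisons was 5.59e-05, 0.000484 and 0.0268, with measured log2 changes of 5.98, 3.64 and 1.87 (SE 0.61), each higher in 3 of 3 donor letters. Between LPS groups, where it was measured on every array, Ifnb1 fell by 2.35 on the log2 scale at 6 h against 1 h (adjusted p = 0.012), with no overlap between the groups. The change at 24 h against 6 h was -1.76 (adjusted p = 0.0627), and the groups overlapped, since donor C was at 2.67 at 24 h and at 2.33 at 6 h. Blocking on the donor letter gave that change an adjusted p of 0.0373, and leaving out the 6 h array of donor C gave -2.45 (adjusted p = 0.0108).

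Slide and single arrays decided some of these calls. With slide as a block the adjusted p was 0.00651 at 1 h but 0.0683 at 6 h, 0.392 at 24 h and 0.0524 at 6 h against 1 h, and the difference between 6 h and 1 h within the 1 slide that held both was -0.82. The call at 24 h was lost without any 1 unstimulated array (log2 change 1.82, 1.95 and 1.85, adjusted p = 0.0718, 0.0579 and 0.0647, without A, B and C) and without the 24 h array of donor C (1.51, adjusted p = 0.109), as well as with local backgrounds as deposited (adjusted p = 0.078), and that at 6 h against 1 h with the scanner software's own signals (-1.48, adjusted p = 0.0863).

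Some other interferon genes also rose at 1 h. Of 14 other type I and III interferon genes looked for, 10 had a probe and 6 passed the filter, of which 3 were higher at 1 h and 0 were called at 6 h or 24 h against unstimulated cells. Ifna4 was higher by 2.00 (SE 0.21, adjusted p = 6.52e-05), Ifnab by 1.63 (adjusted p = 0.00066) and Ifna12 by 0.98 (adjusted p = 0.0377, but 0.338 with slide as a block), and the same 3 fell at 6 h against 1 h, by 1.79, 1.20 and 0.87. The median log2 change of the 6 was 0.70 at 1 h, when 4.05% of all genes were called higher. Ifna4 was above background on 0 of the 3 unstimulated arrays, on 3 at 1 h, on 1 at 6 h and on 0 at 24 h. It thus passed the filter only through the 1 h group, where it was high, and its calls are no separate support for a rise at 1 h. Its unstimulated and 24 h values are at background, so its fitted change is not a bound. Interferon alpha genes are near-identical copies, and how far their probes tell them apart was not tested. In RefSeq's order of genes on GRCm38.p6, Ifnb1 is followed on chromosome 4 by Ifna15, Ifna14 and Ifna9.

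Genes that lead from Tlr4 to Ifnb1 were called in part. Of 16 tested, 3 were higher at 1 h, 7 higher and 1 lower at 6 h, and 9 higher and 1 lower at 24 h. Their median log2 changes were 0.28, 0.23 and 0.68. Of all genes, 4.05%, 16.1% and 17.9% were called higher at these times, and 23.6% and 21.4% lower at 6 h and 24 h. At 1 h these were Ikbke, a kinase related to Tbk1, at 0.80, the NF-kappa B subunit Rela at 0.76 and Jun, part of the AP-1 dimers that bind the Ifnb1 enhancer, at 0.81, and all 3 calls were lost with the slide block (adjusted p = 0.197, 0.0618 and 0.0654). Irf7, which amplifies interferon gene transcription, was higher by 3.44 at 6 h and by 4.01 at 24 h (SE 0.24 for both), against 0.18 at 1 h (not called). Irf3, the first interferon regulatory factor to act on Ifnb1, had log2 changes of 0.02, -0.33 and 0.07 at 1, 6 and 24 h, none of them called. Tlr4 fell by 1.30 at 6 h against 1 h (adjusted p = 0.00597), and Jun fell by 1.38 (adjusted p = 5.65e-05). The 1 h arrays of Tlr4 were widely spread, with an SD of 0.79 around a mean log2 ratio of 0.79. Against unstimulated cells, Tlr4 changed by -0.51 at 6 h (adjusted p = 0.202).

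Both receptor chains rose by 6 h and remained above unstimulated cells at 24 h. Ifnar1, the signalling chain that binds Tyk2, had log2 ratios of 0.62, 0.56 and 0.50 in unstimulated cells, 0.67, 0.91 and 0.78 at 1 h, 1.79, 1.84 and 1.66 at 6 h, and 1.19, 1.33 and 1.45 at 24 h. No LPS array was within the range of the unstimulated arrays, and the 6 h arrays were above all others. The change against unstimulated cells was 0.22 at 1 h (SE 0.11, adjusted p = 0.25), 1.20 at 6 h (adjusted p = 5.83e-06) and 0.76 at 24 h (adjusted p = 0.000212). Ifnar1 was thus 2.30-fold higher at 6 h and 1.70-fold higher at 24 h. It rose by 0.98 at 6 h against 1 h (adjusted p = 4.36e-05) and fell by 0.44 at 24 h against 6 h (adjusted p = 0.0186).

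With slide as a block the changes of Ifnar1 at 24 h against unstimulated cells (0.64, adjusted p = 0.0786) and against 6 h (-0.42, adjusted p = 0.11) were not called, and median centring of the arrays also ended the first (0.60, adjusted p = 0.0765). The fall at 24 h against 6 h was lost without the 6 h array of donor A or B (-0.42 and -0.40, adjusted p = 0.0693 for both) and without the 24 h array of donor A (-0.37, adjusted p = 0.0645), and with local backgrounds as deposited (-0.16, adjusted p = 0.599).

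Ifnar2, the chain that binds Jak1, was the one gene of the 9 with a mean below the pool in unstimulated cells and at 1 h. Its log2 ratio was -0.90, -1.10 and -0.77 in unstimulated cells, -0.32, 0.27 and -0.53 at 1 h, 0.36, 0.67 and -0.05 at 6 h, and 0.33, 1.39 and 0.54 at 24 h. The unstimulated arrays were below all others. The arrays of 6 h overlapped those of 1 h and of 24 h, and those of 24 h were above those of 1 h. Ifnar2 was higher by 1.25 at 6 h (SE 0.28, adjusted p = 0.00316) and by 1.68 at 24 h (adjusted p = 0.000452) than in unstimulated cells, and its change at 1 h was 0.73 (adjusted p = 0.128). The changes of 0.52 at 6 h against 1 h (adjusted p = 0.194) and 0.43 at 24 h against 6 h (adjusted p = 0.321) were not called, though the first was called with slide as a block (0.92, adjusted p = 0.00389), with median centring (0.91, adjusted p = 0.0034), from Cy5 alone (0.72, adjusted p = 0.0455) and as the mean over probes (0.73, adjusted p = 0.0195).

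A second, dimmer probe of Ifnar2 gave the same rise at 6 h, 1.21 (SE 0.16, adjusted p = 8.71e-05 over 21750 probes), and less at 24 h, 0.79 (adjusted p = 0.00192). After 6 h the probes ran in opposite directions, with -0.42 on the dimmer one (adjusted p = 0.0958) and 0.43 on the one used, neither called.

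**Figure D2:**
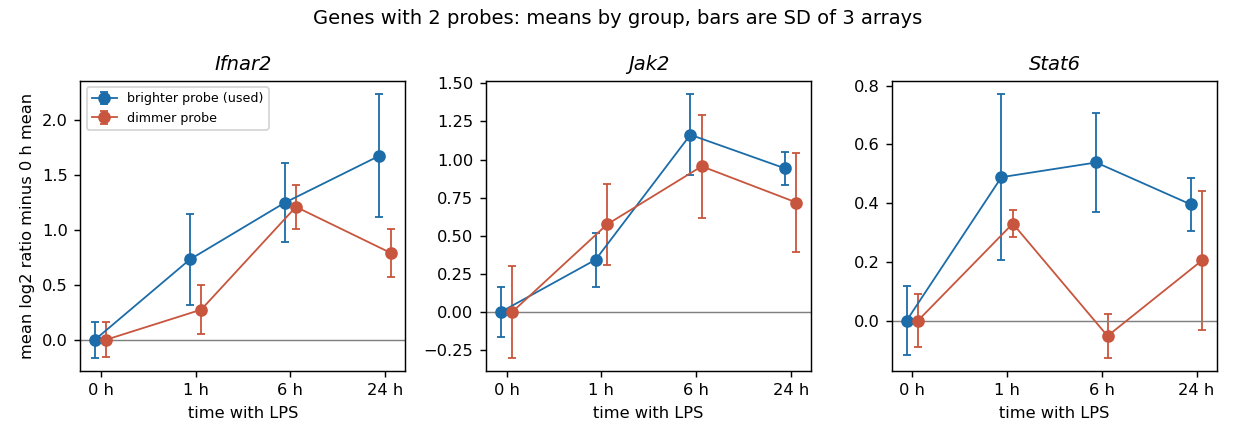
Mean log2 ratio minus the 0 h mean (vertical axes) by time with LPS (horizontal axes) for the brighter probe, which stands for the gene, and the dimmer probe of Ifnar2, Jak2 and Stat6; bars are the SD of 3 arrays. At 6 h the dimmer probe was at 1.21 for Ifnar2, 0.96 for Jak2 and -0.05 for Stat6.

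In RefSeq's gene order on GRCm38.p6, Ifnar2, Il10rb, Ifnar1 and Ifngr2 are neighbours on chromosome 16. Il10rb, a chain of the IL-10 receptor, was higher by 0.87 at 6 h (adjusted p = 0.00256) and 0.64 at 24 h (adjusted p = 0.0155). Ifngr2, a chain of the interferon gamma receptor, was at 0.29 at 6 h (not called) and 0.67 higher at 24 h (adjusted p = 0.00193). With the slide block, both calls at 24 h were lost (adjusted p = 0.21 for Il10rb and 0.141 for Ifngr2). Its partner chain Ifngr1 fell by 1.63 at 6 h (adjusted p = 3.04e-06) and by 1.53 at 24 h (adjusted p = 7.56e-06) against unstimulated cells.

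Of 20 other tested receptor chains that signal through JAKs, 1 was higher at 1 h, 8 were higher and 3 lower at 6 h, and 9 were higher and 2 lower at 24 h. Csf3r, counted as higher at 6 h and 24 h, passed the filter only through these 2 groups, where it was high. It was below background on every unstimulated and 1 h array, and its calls are no separate support for a rise. Of all genes, 4.05% were called higher at 1 h, 16.1% higher and 23.6% lower at 6 h, and 17.9% higher and 21.4% lower at 24 h. The median changes of the 20 were 0.19, 0.31 and 0.50. Il10ra was the one called at 1 h, at 1.08 (SE 0.19, adjusted p = 0.00452). At 6 h, Il15ra, which presents IL-15, was higher by 2.60 and Il12rb1, shared by the IL-12 and IL-23 receptors, by 2.03. Lifr, a chain of the leukemia inhibitory factor receptor, fell by 1.28 at 6 h and by 1.87 at 24 h. Ifnlr1, the chain specific to interferon lambda, was 0.62 lower at 6 h (adjusted p = 0.0293), and that call was lost with slide as a block (adjusted p = 0.698).

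Of both kinases, Jak2 rose, and no change of Tyk2 was called unless donor letters were blocked. Jak2 had log2 ratios of 2.71, 2.99 and 3.00 in unstimulated cells, 3.17, 3.45 and 3.11 at 1 h, 4.22, 4.21 and 3.76 at 6 h, and 3.80, 3.96 and 3.77 at 24 h. Every array of 6 h and 24 h was above every array of 1 h and of unstimulated cells, and those of 6 h and 24 h overlapped. Jak2 was higher by 1.16 at 6 h (SE 0.15, adjusted p = 8.21e-05), which is 2.24-fold, and by 0.94 at 24 h (adjusted p = 0.000392), while the change at 1 h was 0.34 (adjusted p = 0.191). It rose by 0.82 at 6 h against 1 h (adjusted p = 0.0016), and its change at 24 h against 6 h was -0.22 (adjusted p = 0.354). The dimmer Jak2 probe was called at the same times against unstimulated cells, with 0.96 at 6 h (adjusted p = 0.00416) and 0.72 at 24 h (adjusted p = 0.0213), but not at 6 h against 1 h (0.38, adjusted p = 0.238).

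Tyk2 had log2 ratios of 0.69, -0.10 and 0.69 in unstimulated cells, 1.02, -0.21 and 0.60 at 1 h, 1.16, 0.56 and 1.41 at 6 h, and 1.08, 0.15 and 0.87 at 24 h. The array of donor B was the lowest in all 4 groups, 0.48 to 0.68 below its group's mean, and the groups overlapped in every comparison. Without a block no change of Tyk2 was called: it was 0.04 at 1 h (adjusted p = 0.953), 0.62 at 6 h (SE 0.34, adjusted p = 0.178) and 0.27 at 24 h (adjusted p = 0.561) against unstimulated cells. With the donor letter as a block, Tyk2 was called higher at 6 h against unstimulated cells (0.62, adjusted p = 0.00347) and against 1 h (0.58, adjusted p = 0.0078, against 0.242 without the block). Within letters A, B and C, the change at 6 h was 0.47, 0.66 and 0.72. With slide as a block it was 1.02 (adjusted p = 0.137).

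The other JAKs were Jak1 and Jak3. Jak1, the partner of Tyk2 on the receptor, was 0.46 higher at 6 h (SE 0.15, adjusted p = 0.027) and was at 0.31 at 24 h (not called). Jak3, which works with the shared chain Il2rg, was 0.51 higher at 24 h (adjusted p = 0.0104) but not with slide as a block (adjusted p = 0.326).

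**Figure D3:**
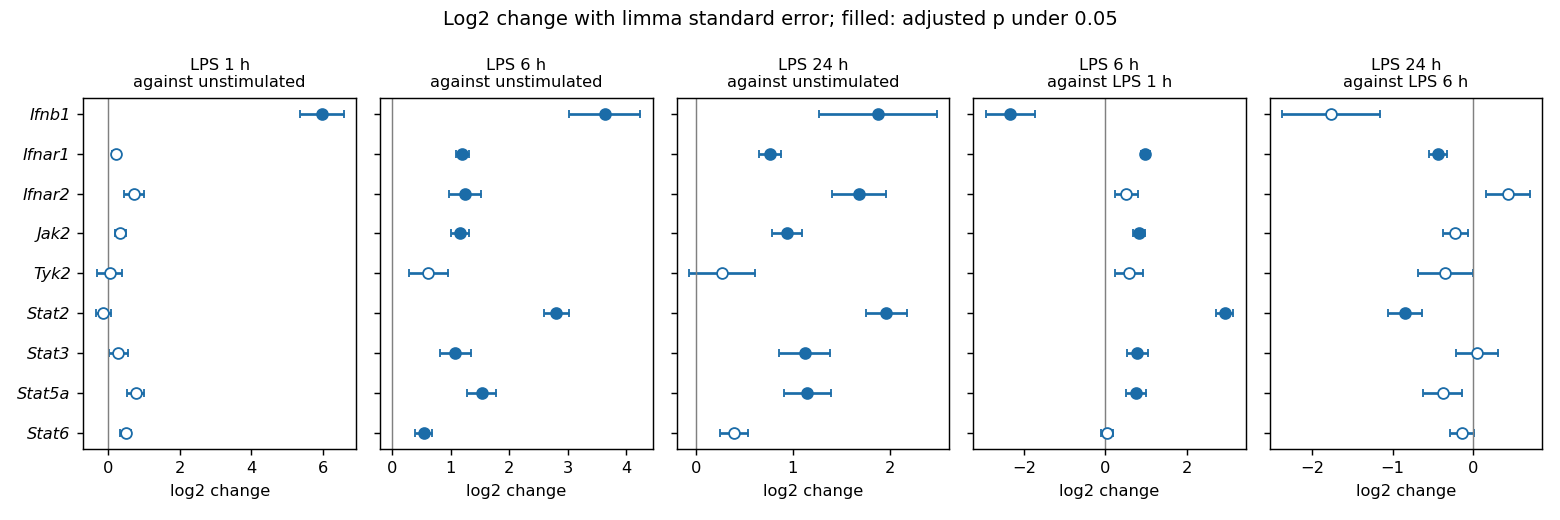
Log2 change (horizontal axes, each panel on its own scale) of the 9 genes in the 5 comparisons, with the limma standard error as bars. Filled points have an adjusted p under 0.05; Ifnb1 against unstimulated cells is drawn at its measured change, although it was below background in those cells.

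Stat2, the STAT particular to interferon signalling, had the highest change of the 4 STATs and none of it by 1 h. Its log2 ratio was 1.83, 1.54 and 1.52 in unstimulated cells, 1.50, 1.86 and 1.12 at 1 h, 4.71, 4.43 and 4.18 at 6 h, and 3.33, 3.95 and 3.50 at 24 h. The arrays of 6 h were above those of 24 h, and both were above all earlier ones. The change against unstimulated cells was -0.14 at 1 h (SE 0.21, adjusted p = 0.734), 2.81 at 6 h (adjusted p = 8.47e-07) and 1.96 at 24 h (adjusted p = 2.24e-05). Stat2 was 7.01-fold higher at 6 h and 3.90-fold higher at 24 h, in 3 of 3 donor letters.

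Stat2 rose by 2.94 at 6 h against 1 h (adjusted p = 7.1e-07). It fell by 0.85 at 24 h against 6 h (adjusted p = 0.0154, and 0.0129 with slide as a block). That fall was lost without the 6 h array of donor A (-0.71, adjusted p = 0.0734), and without the 24 h array of donor A (-0.72, adjusted p = 0.0538) or C (-0.80, adjusted p = 0.0563). With local backgrounds as deposited it was -0.34 (adjusted p = 0.59).

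Irf9, with which Stat2 works in ISGF3, was higher by 1.35 at 6 h (SE 0.15, adjusted p = 2.37e-05) and by 0.95 at 24 h (adjusted p = 0.000331), and was at -0.18 at 1 h (not called). Stat4, which serves IL-12, was at -0.01 at 6 h (not called) and 1.26 higher at 24 h (adjusted p = 0.000175).

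Stat5a rose to its highest at 6 h. Its log2 ratio was 3.29, 3.05 and 3.22 in unstimulated cells, 3.62, 4.50 and 3.78 at 1 h, 4.88, 4.85 and 4.43 at 6 h, and 4.01, 4.82 and 4.18 at 24 h. All LPS arrays were above the unstimulated ones, and the LPS groups overlapped one another, with donor B high at 1 h. Stat5a was higher by 1.53 at 6 h (SE 0.24, adjusted p = 0.000329) and by 1.15 at 24 h (adjusted p = 0.0024). Its change of 0.78 at 1 h was not called (adjusted p = 0.0717) but was with the donor letter as a block (adjusted p = 0.0365).

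The rise of Stat5a by 0.75 at 6 h against 1 h (adjusted p = 0.0347) was lost without the 1 h array of donor A (0.58, adjusted p = 0.139) or C (0.66, adjusted p = 0.109), and without the 6 h array of donor A (0.67, adjusted p = 0.121) or B (0.69, adjusted p = 0.106), and with local backgrounds as deposited (0.59, adjusted p = 0.19). Its change at 24 h against 6 h was -0.38 (adjusted p = 0.314), or -0.87 with median centring (adjusted p = 0.00726).

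Stat3 was higher at 6 h and 24 h than in unstimulated cells, and its arrays were widely spread at 24 h. Its log2 ratio was 0.57, 0.44 and 0.54 in unstimulated cells, 1.02, 0.99 and 0.42 at 1 h, 1.91, 1.58 and 1.31 at 6 h, and 1.00, 2.19 and 1.73 at 24 h. The SD at 24 h was 0.60, against 0.07 in unstimulated cells, and the 10 spots of this probe on 1 array had an SD of at most 0.05. Stat3 was higher by 1.08 at 6 h (SE 0.26, adjusted p = 0.00553) and by 1.12 at 24 h (adjusted p = 0.00445), while the change at 1 h was 0.29 (adjusted p = 0.532). At 24 h against 6 h donor A was lower by 0.91 on the log2 scale and donors B and C were higher by 0.62 and 0.43, and the mean change was 0.04 (adjusted p = 0.929).

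The rise of Stat3 by 0.79 at 6 h against 1 h (adjusted p = 0.0401) was lost without the 1 h array of donor A (0.89, adjusted p = 0.0526) or C (0.59, adjusted p = 0.15), and without the 6 h array of donor A (0.63, adjusted p = 0.161) or B (0.80, adjusted p = 0.0878). It was also lost with no filter on dim probes (adjusted p = 0.0563), with local backgrounds as deposited (0.69, adjusted p = 0.151) and with the scanner software's own signals (0.83, adjusted p = 0.0587), and with slide as a block it was 1.27 (adjusted p = 0.00239).

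Stat5b, Stat5a and Stat3 are neighbours on chromosome 11 in RefSeq's gene order on GRCm38.p6. Stat5b was higher by 1.68 at 6 h (SE 0.13, adjusted p = 1.49e-06) and by 1.21 at 24 h (adjusted p = 2.76e-05), beside 1.53 and 1.15 for Stat5a. Both are close copies of one gene, and how far their probes tell them apart was not tested.

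Stat6 had the smallest changes of the 4 STATs at 6 h and 24 h. Its log2 ratio was 0.55, 0.39 and 0.62 in unstimulated cells, 0.90, 1.33 and 0.80 at 1 h, 1.23, 1.06 and 0.89 at 6 h, and 0.81, 0.96 and 0.98 at 24 h. Every LPS array was above every unstimulated array, and the LPS groups overlapped. The change of 0.54 at 6 h was called (SE 0.15, adjusted p = 0.0114), and those of 0.49 at 1 h (adjusted p = 0.0654) and 0.40 at 24 h (adjusted p = 0.0501) were not.

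The call at 6 h was not seen on the dimmer Stat6 probe, which changed by -0.05 (SE 0.13, adjusted p = 0.793). That probe fell by 0.38 at 6 h against 1 h (adjusted p = 0.0401), where the probe used changed by 0.05 (adjusted p = 0.841). For 6 h against unstimulated cells, the mean of both probes gave 0.24 (adjusted p = 0.13). The call was also lost with slide as a fixed block (0.51, adjusted p = 0.228), with local backgrounds as deposited (0.25, adjusted p = 0.466) and without the 6 h array of donor A (0.45, adjusted p = 0.058). Without the 1 h array of donor C the change at 1 h was called (0.59, adjusted p = 0.0377), and with a normexp offset of 16 so was that at 24 h (0.45, adjusted p = 0.0458).

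Between the LPS groups, 5 of the 9 genes were higher and 1, Ifnb1, was lower at 6 h against 1 h, beside 12% of all genes called higher and 16.2% called lower. The median change of the 9 was 0.75, beside -0.09 over all genes. At 24 h against 6 h, 0 of the 9 were higher and 2, Ifnar1 and Stat2, were lower, beside 9.65% and 8.73% of all genes, and the median was -0.35, beside 0.04. The groups did not overlap for 5 of the 9 at 6 h against 1 h and for 2 at 24 h against 6 h, beside 40.8% and 35% of all genes. Any difference between the 4 groups was called for 8 of the 9 genes by the moderated F test, with Tyk2 the exception (adjusted p = 0.371).

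Negative regulators of the pathway were called in both directions, as were all genes. Of 17 tested, 2 were higher and 1 lower at 1 h, 4 higher and 2 lower at 6 h, and 6 higher and 3 lower at 24 h, with median changes of 0.04, 0.31 and 0.28. Of all genes, 4.05% were called higher and 3.39% lower at 1 h, 16.1% and 23.6% at 6 h, and 17.9% and 21.4% at 24 h. Socs3, which blocks receptors that use Stat3, was higher by 2.71 at 1 h (SE 0.16, adjusted p = 5.45e-07), 2.33 at 6 h and 2.61 at 24 h. Cish, a target of Stat5, was higher by 1.03 at 1 h (adjusted p = 0.00111), 0.61 at 6 h and 0.71 at 24 h. Socs1, which inhibits JAKs directly, fell by 1.58 at 1 h (adjusted p = 9.75e-05) and by 0.73 at 6 h (adjusted p = 0.0049, but 0.167 with slide as a block), and was at -0.05 at 24 h (not called). Usp18, which binds Ifnar2 and displaces Jak1, was at -0.09 at 1 h (not called), 4.37 higher at 6 h (SE 0.27, adjusted p = 1.83e-07) and 2.68 higher at 24 h (adjusted p = 1.56e-05).

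Interferon-stimulated genes rose almost as a whole between 1 h and 6 h. Of 25 looked for, 22 had a tested probe. Of these 5 were higher and 0 lower at 1 h, 21 were higher at 6 h and 21 at 24 h against unstimulated cells, with median changes of 0.02, 4.10 and 2.95. Of all genes, 4.05%, 16.1% and 17.9% were called higher in these comparisons. All 22 were higher at 6 h against 1 h (median 3.52), beside 12% of all genes. However, Ifi44 passed the filter only through the 6 h group, and Ifit2 only through the 6 h and 24 h groups, where it was high. The calls of both in this comparison, and of Ifit2 against unstimulated cells, are no separate support for a rise. At 24 h against 6 h, 16 were lower and 1 higher (median -0.95), beside 8.73% and 9.65% of all genes. The 5 at 1 h were Isg15, a ubiquitin-like protein (3.86), the antiviral genes Rsad2 (2.68), Ifit1 (2.22) and Oasl1 (2.10), and the RNA sensor Ifih1 (2.09), and with slide as a block Rsad2 (adjusted p = 0.0934) and Ifit1 (adjusted p = 0.144) were not called. Rsad2 was higher by 8.35 at 6 h (SE 0.44, adjusted p = 5.93e-08) and by 6.05 at 24 h. Ifi44 was the gene not called at 6 h (0.39) or 24 h (0.05), and Bst2, which tethers virions, was the one higher at 24 h against 6 h, by 0.43 (adjusted p = 0.0352, but 0.175 with slide as a block).

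**Figure D4:**
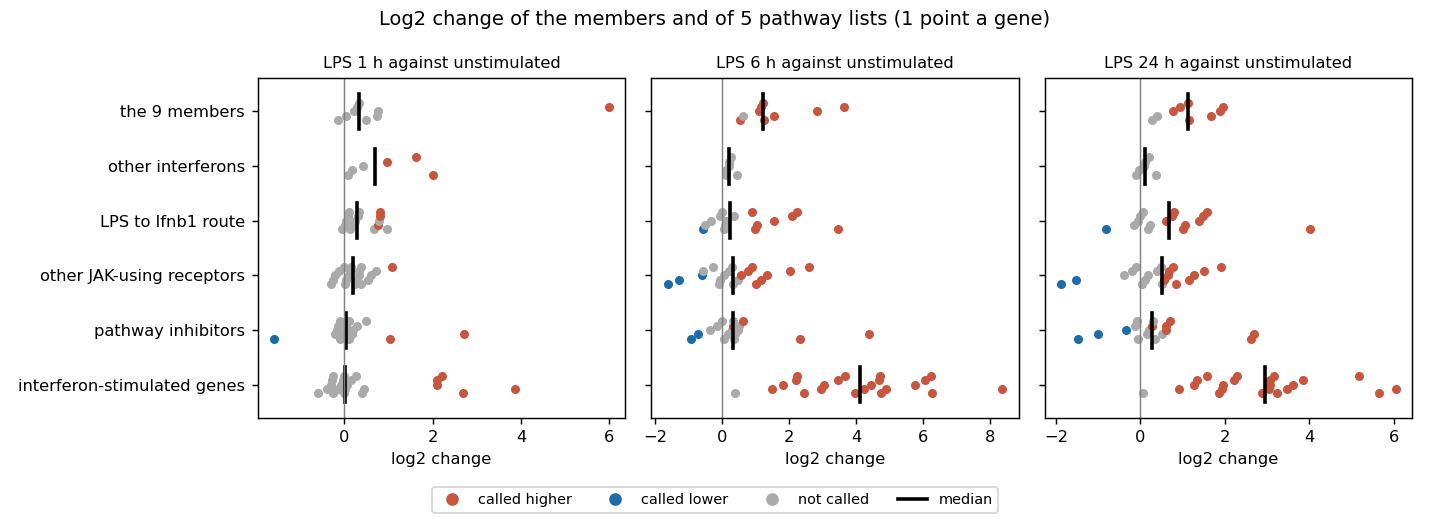
Log2 change against unstimulated cells (horizontal axes, each panel on its own scale) of the 9 genes and of the tested genes of 5 pathway lists (vertical axis, 1 point a gene) at 1 h, 6 h and 24 h. Black bars are medians, which for interferon-stimulated genes were 0.02 at 1 h, 4.10 at 6 h and 2.95 at 24 h.

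The patterns of the 9 genes over the 12 arrays were compared with those of all genes by Pearson's r, as a description, since the arrays share their groups and the same pooled RNA. Ifnar1, Jak2 and Stat2 were alike, with r of 0.96 for Ifnar1 and Stat2, 0.94 for Ifnar1 and Jak2 and 0.92 for Jak2 and Stat2. Ifnb1 was unlike them, with r of 0.02 with Stat2, 0.24 with Ifnar1 and 0.30 with Jak2, and was nearest to Stat6 at 0.79. Tyk2 had its highest r, 0.40, with Ifnar1 and Stat2.

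For each gene the 3 most similar of all genes were taken. Ifnb1 was closest to Plscr1 (r = 0.981), Trim13 (0.973) and Nfkbiz (0.969), a regulator of NF-kappa B targets, whose mean log2 ratio was -2.48 in unstimulated cells, 4.10 at 1 h, 1.63 at 6 h and 0.40 at 24 h. Stat2 was closest to Trim30a (0.989), Rnf31 (0.988) and Uba7 (0.985), the enzyme that activates Isg15. Ifnar1 was closest to Sp110 (0.992), Cemip2 (0.989) and Sh3bp5 (0.987), and Ifnar2 to Il18bp (0.981), Npc2 (0.978) and Sqstm1 (0.978). Jak2 was closest to Vwa5a (0.981), Nos2 (0.976), the inducible nitric oxide synthase, and Ttc39b (0.975). The closest genes were Tle3 (0.975), Fmn1 (0.974) and Rab8b (0.970) for Stat5a, Mpp5 (0.963), Ago3 (0.960) and Akap12 (0.950) for Stat3, and Tcirg1 (0.955), Btg1 (0.943) and Bcl2l1 (0.936) for Stat6. Tyk2 had the lowest of these values, with Trappc3 at 0.930, Pdia5 at 0.909 and Odf4 at 0.907.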

How the data were processed

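The deposited files of single arrays were written by Agilent Feature Extraction 10.7.3.1 (protocol GE2_107_Sep09), per the file headers, and hold the median intensity of each of 45018 spots and of its local background in both channels, not normalized, with quality marks. The deposited value table holds log2 ratios made by the authors, with limma per the submitters' processing notes; its version is not given in the sources used here. The ratios computed here and that table had a correlation of 0.999 or more for each array.

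In R 4.3.3 with limma 3.58.1, signals were corrected with normexp (offset 50), after local backgrounds marked as outliers were replaced by the array's median, and normalized by loess (span 0.3) with 1639 control spots at weight 0. Of 41174 probes, 22951 matched a symbol by accession and 21750 were kept, being well above background in Cy5 on all 3 arrays of at least 1 group. The probe with the highest mean intensity stood for each of 11095 genes. One linear model over all 12 arrays (8 residual degrees of freedom) gave two-sided tests, adjusted by Benjamini-Hochberg over all genes and called under 0.05. Nothing in the labels says that samples came from separate animals beyond the words biological replicate and donor. The number of arrays limits the precision.

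Donor letters are shared by all groups, and the labels do not say that a letter is 1 animal throughout. Deviations of arrays with the same letter correlated across genes at -0.21 to 0.58 (median 0.11, 18 pairs), and those of different letters at -0.53 to 0.41 (median -0.01, 36 pairs). The letter as a block is given where it changes a call. Other alternatives were the slide as a block, other background corrections, scalings and filters, the mean over probes, and leaving out each array.

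The 9 genes and the lists of pathway and marker genes were chosen with earlier results of these data known. Values are given for all 9 genes. The rule for other names took the 3 genes most similar to each by r and, per list and comparison, up to 4 called genes with the largest changes. Further list genes (Irf3, Il10rb, Ifngr2, Csf3r, Ifnlr1, Jak1, Ifi44, Bst2, Ngp and values beside a named gene's call) were chosen after their values were seen. Counts over the list of other JAK and STAT genes are not reported here. No probe sequences, proteins or genome were used here, and promoters come from RefSeq tables of GRCm38.p6.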

Additional observations from a re-analysis of the deposited data

How the results depend on the processing

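Over 45 changes of the 9 genes, 747 alternative values were computed. Of these, 670 were counted as the same, 36 lost the call, 13 gained it and 17 turned direction, and 11 values within slides moved beyond the spread of replicates. The same means that direction and call were kept, save for 16 values within slides. Those have no adjusted p and only lay within that spread. Within slides, a turn was counted for called changes only. At 24 h against 6 h, Jak2 was at 0.026 and Stat6 at 0.007 within the slide, and neither is among the 17. Every turned value belonged to a change that was not called. At 1 h against unstimulated cells, Tyk2 was at -0.11 with median centring and -0.026 from Cy5 alone, and between -0.23 and 0.38 with 1 array left out: it was -0.22 without the unstimulated array of donor B, -0.23 without the 1 h array of donor A and -0.021 without that of donor C. With 1 array left out Stat2 lay between -0.32 and 0.051, the highest without the 1 h array of donor C. At 6 h against 1 h, Stat6 was at -0.20 with local backgrounds as deposited, -0.17 as the mean over probes, and between -0.056 and 0.21 with 1 array left out, below 0 without the 1 h array of donor A (-0.005), that of donor C (-0.056) or the 6 h array of donor A (-0.034). At 24 h against 6 h, Stat3 was at -0.37 with median centring and between -0.23 and 0.36 with 1 array left out, below 0 without the 6 h array of donor C (-0.10) or the 24 h array of donor B (-0.23) or C (-0.002); Stat6 was at 0.14 with backgrounds as deposited and 0.057 as the mean over probes. The cause was not tested.

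The replicate block on the donor letter took the called members at 1 h to 2, with Stat5a, and beyond that gained Tyk2 in both comparisons of 6 h with earlier cells and Ifnb1 between 24 h and 6 h; it changed no other call of the 9 genes. In the comparison of 24 h with 6 h, 0 members were called with backgrounds as deposited and 1 with slide as a block. Leaving out 1 array at a time gave 1 to 2 called members for 1 h, 7 to 8 for 6 h and 6 to 7 for 24 h against unstimulated cells, 4 to 6 for 6 h against 1 h and 0 to 3 for 24 h against 6 h. In the same order it gave 338 to 1048, 3377 to 4294, 3476 to 4223, 2083 to 3079 and 1079 to 1820 called genes in all. Over all genes, where 825, 4396, 4367, 3124 and 2040 were called in these comparisons, backgrounds as deposited gave 243 for the first, 2438 for the second, 1378 for the fourth and 798 for the fifth. Median centring gave 225, 2017, 2335, 1452 and 927, and shifted the median of all genes by -0.14, 0.09, -0.13, 0.22 and -0.22; of its calls 79.6%, 67.3%, 35.6%, 83.1% and 10.4% were higher, against 54.4%, 40.6%, 45.6%, 42.6% and 52.5% with loess. Slide as a block gave 225 for the first, 1957 for the second, 1761 for the third and 868 for the fifth. The share of higher calls at 1 h was 64.2% with backgrounds as deposited, 38.0% from Cy5 alone and 75.6% with slide as a block.

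Slide and group overlap, since unstimulated arrays share no slide with those of 6 h or 24 h, so the changes at these times cannot be told apart from slide within any 1 slide. Ifnb1 in unstimulated cells is limited by background.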
